A study of Homo sapiens with 32 samples.

Results

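Transcript levels of 10 protein tyrosine kinase genes were followed in MDA-MB-468 cells, an established human cell line of triple-negative breast cancer, under 2 drugs. The genes are SRC, YES1, FYN, LYN, LCK and FRK, the SRC family and its close relative, ABL1 and ABL2, the ABL family, and DDR1 and DDR2, which encode collagen receptors. They were listed by name as kinases that dasatinib (Das) is known to bind, matched by symbol to the Ensembl identifiers of the count table, and all 10 were found among the 48804 genes listed. Cells received PBS (control), 0.5 μM salinomycin (Sal), 15 μM Das or the combination of these doses (S + D, 15.5 μM in total) for 24 or 72 h. Each of the 8 conditions had 4 libraries from biological replicates, 32 in all, and every condition shares its cell line and its medium with fetal bovine serum. Sal is an ionophore antibiotic, and Das is an inhibitor that occupies the ATP site of these kinases.

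SRC family kinases sit at the inner face of the plasma membrane and pass signals from integrins and growth factor receptors to the cytoskeleton and to transcription factors. Their activity is set mainly at the protein level, by the phosphorylation of a tail tyrosine by CSK and its removal by phosphatases, and ABL1 and ABL2 remodel actin downstream of the same receptors. DDR1, which is typical of epithelial cells, and DDR2, which is typical of mesenchymal cells, are receptor tyrosine kinases that collagen activates and that SRC helps to phosphorylate. The libraries measure the abundance of transcripts, and neither kinase protein nor kinase activity.

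Libraries held from 25692561 to 42769687 counts. Levels are given as CPM (counts relative to library size, after scaling by TMM in edgeR), as mean ± SD. Of the 10 genes, 9 passed the filter on low counts and were tested, while LCK, with 0 to 11 counts per library, did not pass. Genes are called where the quasi-likelihood test of edgeR, with p adjusted over all genes tested by Benjamini-Hochberg, gave less than 0.01. The labels leave 1 library of every condition without a replicate number, and these unnumbered libraries deviated together from their condition means (correlation across genes from 0.522 to 0.666 within a time point), so values from the numbered libraries alone are given beside results whose call they change. Where values are listed per library, the unnumbered library comes first and replicates 1, 2 and 3 follow. The epithelial markers EPCAM, KRT8, KRT18, KRT19, CDH1 and EGFR had at least 5789 counts in every library, PGR had at most 3 and ERBB2 was at 56.8 to 192 CPM. ESR1 had 139 to 353 counts. The T cell markers CD3E, CD3D, CD2 and PTPRC had at most 5 counts in any library, as did the fibroblast markers LUM and DCN, while COL1A1, which is also on the fibroblast list, had 602 to 4275 and PDGFRB 2 to 79. In such bulk libraries, fewer cells with a transcript and less of it per cell cannot be told apart.

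The 10 kinases differed in level over several orders of magnitude before any drug was given. Compared per kilobase of merged exons in the 72 h control, DDR1 stood highest at 157 ± 18.1 CPM per kb (SD, n = 4), ahead of YES1 at 93.2 ± 9.41 and ABL1 at 15.9 ± 1.07 CPM per kb. SRC followed at 7.70 ± 0.734, FRK at 6.39 ± 0.438 and ABL2 at 4.55 ± 0.157 CPM per kb. Below these came LYN at 1.98 ± 0.171 and FYN at 1.81 ± 0.214 CPM per kb, whose libraries overlapped. DDR2 (0.0579 ± 0.00689) and LCK (0.0442 ± 0.0157 CPM per kb) were lowest and also overlapped. All other neighbours in this order were separated in every library. The 24 h control had the same order except that LCK stood above DDR2, again with overlapping libraries. Within the SRC family, YES1 alone supplied 83.8 ± 1.88% of the summed per-kilobase level of the 6 genes in the 72 h control, SRC 6.99 ± 1.11%, FRK 5.79 ± 0.722%, LYN 1.78 ± 0.0962% and FYN 1.64 ± 0.271% (SD, n = 4).

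**Figure D1:**
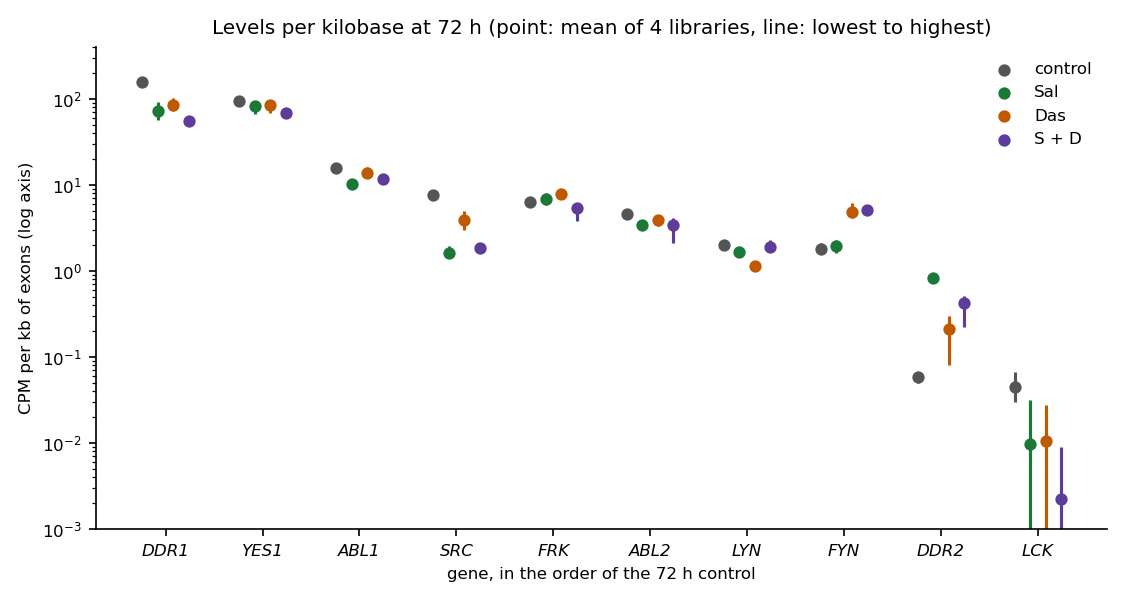
Level of each kinase gene at 72 h, in CPM per kilobase of merged exons on a log axis, with genes in the order of the control. Points are means of 4 libraries and lines run from the lowest to the highest library, reaching the lower edge where a library had 0 counts. DDR1 and YES1 stand highest in each condition, and DDR2 rises from 0.0579 CPM per kb in the control to 0.827 with Sal.

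The drugs rearranged this order. With Sal at 72 h, YES1 (81.5 ± 12.8 CPM per kb) stood above DDR1 (71.6 ± 16.1) with overlapping libraries, and SRC dropped from rank 4 to rank 8 at 1.62 ± 0.240 CPM per kb, where its libraries overlapped those of LYN (1.66 ± 0.134). With Das, FYN moved up to 4.82 ± 0.918 CPM per kb, between FRK (7.88 ± 0.721) and SRC (3.89 ± 0.926), and its libraries overlapped those of SRC. With S + D, every YES1 library lay above every DDR1 library (67.5 ± 4.19 against 55.0 ± 3.46 CPM per kb), and FYN at 5.11 ± 0.180 stood above ABL2, LYN and SRC. In CPM, without division by length, DDR1 (466 to 542) lay above YES1 (325 to 370) in these libraries. The order between genes and the shares thus depend on the merged exon lengths, here 9.122 kb for DDR1 and 5.1 kb for YES1. The share of FYN in the SRC family sum at 72 h was 2.104 ± 0.496% (Sal), 4.85 ± 1.49% (Das) and 6.28 ± 0.507% (S + D). That of SRC was 1.77 ± 0.455%, 3.88 ± 1.07% and 2.25 ± 0.174% in the same order. YES1 kept 78.0 to 89.1% of the sum in each of these libraries. The sum itself ran from 103 to 122 CPM per kb in the control and from 76.9 to 87.0 with S + D, without overlap.

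**Figure D2:**
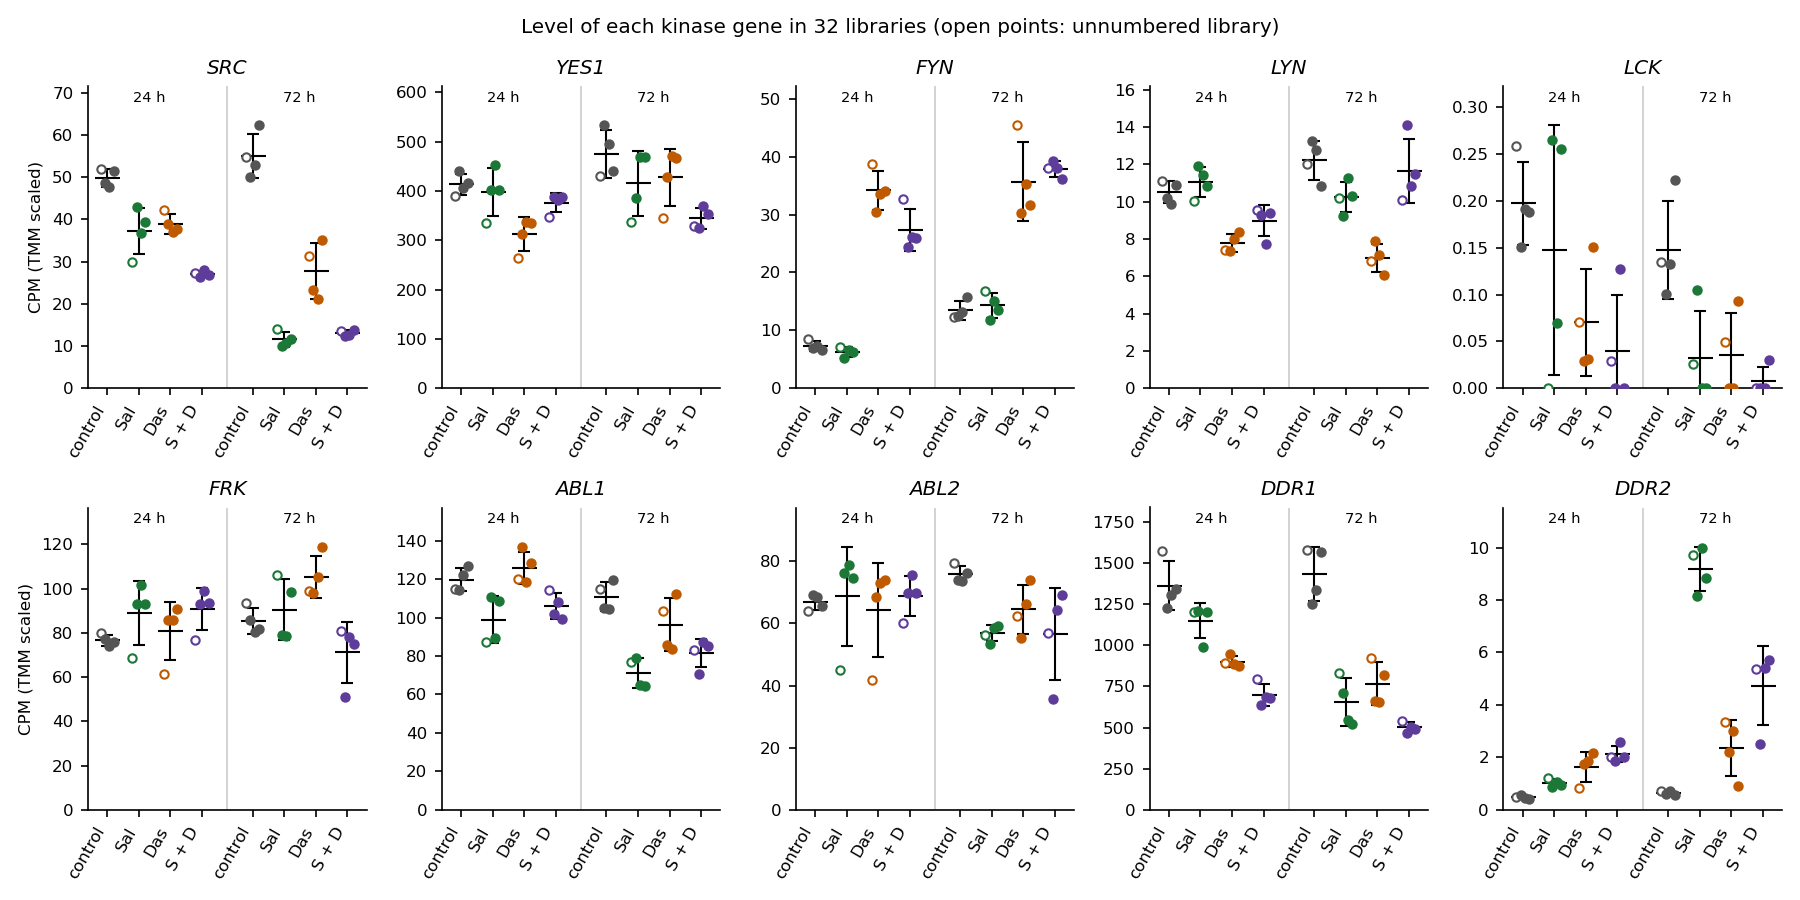
CPM of each of the 10 kinase genes in all 32 libraries, by treatment and time, with an axis that starts at 0 for each gene. Bars give the mean and SD of 4 libraries, and open points are the unnumbered libraries. FYN is high in every library with Das or S + D, SRC is low in every 72 h library with Sal or S + D, and DDR2 is highest with Sal at 72 h.

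SRC, the founding member of its family (chromosome 20 from 35973088 to 36034453 of GRCh37, plus strand, ENSG00000197122), fell with every treatment at 72 h. The 72 h controls had 54.7, 49.9, 53.0 and 62.2 CPM. With Sal the libraries had 13.9, 10.0, 10.7 and 11.6 CPM, and with S + D 13.7, 12.4, 12.5 and 13.8 CPM. Das gave 31.4, 23.2, 21.2 and 35.1 CPM. No treated library overlapped the controls, the Das libraries lay between the controls and the other treatments, and the Sal and S + D libraries overlapped each other. The log2 fold change was -2.27 (standard error 0.16, adjusted p = 1.18e-08) with Sal, a 4.82-fold fall, -2.09 (0.16, adjusted p = 1.53e-08) with S + D and -0.99 (0.15, adjusted p = 0.000149) with Das. At 24 h, control libraries had 51.8, 48.6, 47.5 and 51.5 CPM, and those with S + D 27.3, 26.3, 27.9 and 26.7 CPM, which is -0.85 on the log2 scale (standard error 0.10, adjusted p = 5.65e-06). The 24 h levels with Sal (30.0, 42.9, 36.7 and 39.5 CPM) and with Das (42.1, 38.8, 37.0 and 37.6 CPM) were also below every control. SRC was called with Sal at 24 h (log2 fold change -0.43, adjusted p = 0.00924) and not with Das (-0.34, adjusted p = 0.0216). Leaving out single libraries removed the call with Sal at 24 h in 7 of 8 fits, all except that without Sal replicate 1, and the adjusted p reached 0.0355 without control replicate 3. With the replicate number as a block, the fall with Das at 24 h was called as well (-0.34, adjusted p = 0.00902), as it was in the numbered libraries (-0.35, adjusted p = 0.000163).

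FYN, a SRC family kinase of many tissues that acts at integrins and cell contacts (chromosome 6 from 111981535 to 112194655 of GRCh37, minus strand, ENSG00000010810), rose with Das and with S + D at both times. At 24 h it was at 8.44, 6.93, 7.24 and 6.55 CPM in the control and at 38.7, 30.5, 33.6 and 34.0 CPM with Das. The values were 32.7, 24.5, 26.1 and 25.9 CPM with S + D and 7.09, 5.15, 6.55 and 6.24 CPM with Sal. Libraries with Das, alone or with Sal, lay above every other 24 h library, and Sal overlapped the control. The log2 fold change at 24 h was 2.25 (standard error 0.13, adjusted p = 1.12e-08) with Das, a 4.75-fold rise, 1.94 (0.13, adjusted p = 1.14e-08) with S + D and -0.23 (0.12, adjusted p = 0.245) with Sal. At 72 h the controls had 12.4, 12.4, 13.2 and 15.7 CPM, Das libraries 45.4, 30.3, 35.3 and 31.7 CPM and S + D libraries 38.0, 39.3, 38.1 and 36.1 CPM. The log2 fold change was then 1.40 (0.14, adjusted p = 2.84e-06) with Das and 1.48 (0.14, adjusted p = 1.59e-07) with S + D. Sal alone gave 16.8, 11.8, 15.1 and 13.6 CPM at 72 h, which overlapped the control (0.08, 95% interval from -0.20 to 0.36, adjusted p = 0.656). The control level itself rose from 24 to 72 h (log2 fold change 0.88, standard error 0.13, adjusted p = 0.000123), and FYN was the 1 gene of the 9 called over time in the control, where 2.76% of all genes tested were called.

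Of the SRC family genes tested, FYN had the largest range of mean log2 CPM over the conditions, and 1 of its windows in the RefSeq promoter table of GRCh38.p14 is shown for comparison with those of the DDR genes, which also moved. The table holds 300 bases around each annotated start. In the sequence, CpG dinucleotides are in capitals. The most upstream of 4 FYN windows lies at chr6:111873403-111873702 on the minus strand and reads, 5′ to 3′:
FYN: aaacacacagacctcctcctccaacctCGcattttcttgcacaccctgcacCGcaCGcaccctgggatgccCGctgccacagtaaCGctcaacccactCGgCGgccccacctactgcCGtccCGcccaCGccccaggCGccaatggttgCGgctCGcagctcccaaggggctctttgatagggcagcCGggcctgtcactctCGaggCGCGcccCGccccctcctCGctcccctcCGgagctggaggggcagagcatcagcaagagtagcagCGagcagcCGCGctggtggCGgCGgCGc
It holds 26 CpG, with 69.0% GC and an observed over expected CpG ratio of 0.761, against a median of 14 CpG and a ratio of 0.579 over all 35116 windows of the table. A ratio of at least 0.6 was found in 48.9% of all windows and in 6 of the 21 windows of the 8 kinases with an entry.

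YES1, a ubiquitous SRC family kinase (chromosome 18 from 721588 to 812547 of GRCh37, minus strand, ENSG00000176105), was lower with S + D at 72 h and otherwise not called against the control. The 72 h controls had 431, 533, 496 and 441 CPM, and S + D libraries 328, 325, 370.0 and 354 CPM, with no overlap. It fell by 0.48 on the log2 scale (standard error 0.13, adjusted p = 0.00309). Leaving out single libraries removed this call in 3 of 8 fits, where the adjusted p was 0.0130 without control replicate 1, 0.0209 without control replicate 2 and 0.0205 without the unnumbered S + D library. With Sal (337, 386, 469 and 470 CPM) and Das (345, 428, 470.0 and 467 CPM) the 72 h libraries overlapped the control. At 24 h, libraries with Das (264, 313, 337 and 336 CPM) lay below those of the control (391, 440, 406 and 416 CPM), and the log2 fold change of -0.38 (0.10) missed the threshold (adjusted p = 0.0109), which it passed with the replicate block (-0.39, adjusted p = 0.000206) and in the numbered libraries (-0.32, adjusted p = 4.18e-05). Genes on the opposite strand share 6.14% of the exon bases of YES1, and the use of strand in counting is not given in the sources used here. The pseudogene YES1P1 had 0 to 11 counts.

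LYN, best known from B cells and myeloid cells (chromosome 8 from 56792394 to 56926728 of GRCh37, plus strand, ENSG00000254087), fell with Das given alone. At 72 h, the controls had 12.03, 13.2, 12.8 and 10.8 CPM and Das libraries 6.81, 7.86, 7.15 and 6.09 CPM. With S + D they had 10.1, 14.1, 10.9 and 11.5 CPM. Every Das library lay below every control and every S + D library, while S + D overlapped the control. The log2 fold change was -0.81 (standard error 0.13, adjusted p = 0.000240) with Das, -0.27 (0.13, adjusted p = 0.0845) with Sal and -0.09 (0.13, 95% interval from -0.35 to 0.17, adjusted p = 0.577) with S + D. At 24 h, Das gave 7.41, 7.35, 7.98 and 8.37 CPM against 11.1, 10.2, 9.90 and 10.9 CPM in the control (-0.42, 0.10, adjusted p = 0.00679). That call was absent in 7 of 8 fits with 1 library left out, all but the fit without Das replicate 3, and the adjusted p reached 0.0254 without control replicate 3. The myeloid marker CD14 was at 2.20 to 32.4 CPM and ITGAM at 0 to 1.89 CPM over all libraries. Their sum ran from 26.6 to 34.2 CPM in the 72 h control, from 2.64 to 4.603 with Das, from 5.95 to 17.9 with Sal and from 3.85 to 5.64 with S + D, and the part of this list in the LYN result was not tested.

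FRK, a SRC-related kinase of epithelial cells (chromosome 6 from 116252312 to 116382054 of GRCh37, minus strand, ENSG00000111816), was not called in any comparison with the control. Its 72 h libraries had 93.4, 86.0, 80.2 and 81.9 CPM in the control, 98.9, 98.1, 105 and 119 CPM with Das and 81.0, 50.9, 78.2 and 75.2 CPM with S + D. The Das libraries lay above and most S + D libraries below those of the control. The log2 fold changes were 0.30 (adjusted p = 0.116) with Das and -0.28 (adjusted p = 0.0971) with S + D. Compared directly, S + D was lower than Das (-0.57, standard error 0.14, adjusted p = 0.00344), a call that was absent without Das replicate 3 (-0.48, adjusted p = 0.0141). Replicate 1 of S + D at 72 h had the lowest FRK level of all 32 libraries. At 24 h the unnumbered libraries with Sal, Das and S + D were each the lowest of their group, and the numbered libraries alone gave log2 fold changes of 0.36 (adjusted p = 3e-05), 0.24 (0.000687) and 0.35 (8.35e-06).

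LCK, the kinase of T cell receptor signaling (chromosome 1 from 32716845 to 32751766 of GRCh37, plus strand, ENSG00000182866), was near the limit of detection. The counts were 11, 5, 7 and 6 in the 24 h control and 5, 3, 5 and 8 in the 72 h control. At 24 h they were 3, 1, 1 and 4 with Das, 1, 0, 4 and 0 with S + D and 0, 9, 2 and 9 with Sal. At 72 h they were 2, 0, 0 and 3 with Das, 0, 0, 0 and 1 with S + D and 1, 3, 0 and 0 with Sal. The CPM of Das and S + D libraries lay below those of the controls at both times (two-sided exact permutation test, p = 0.0286 each, the smallest that 4 libraries against 4 allow), while Sal overlapped the control (exact p = 0.429 at 24 h and 0.0571 at 72 h). Fits that kept LCK called it lower with S + D at 72 h (adjusted p = 0.00505 by edgeR without the filter and 0.00906 by DESeq2). Neither fit called it with Das, where edgeR gave an adjusted p of 0.299 at 24 h and 0.152 at 72 h. It was also not called with S + D at 24 h (adjusted p = 0.0669 by edgeR and 0.0497 by DESeq2). With 3 counts set for each treated library, the mean 72 h control level was 1.52-fold that with Sal. It was 1.61-fold that with Das and 1.69-fold that with S + D. These ratios of means leave out the sampling error of such low counts, and the Sal libraries overlapped the control. The T cell markers CD3E, CD3D, CD2 and PTPRC summed to 0 to 0.159 CPM in the 72 h controls, with CD2 at 0 in every library.

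ABL1, a kinase of the cytoplasm and nucleus (chromosome 9 from 133588430 to 133763062 of GRCh37, plus strand, ENSG00000097007), fell with Sal and with S + D at 72 h. Its 72 h libraries had 115, 105, 104 and 120 CPM in the control, 76.7, 79.0, 65.0 and 64.2 CPM with Sal and 83.2, 70.7, 87.3 and 85.2 CPM with S + D. Neither treated group overlapped the control. ABL1 changed by -0.66 (log2, standard error 0.12, adjusted p = 0.000116) with Sal, -0.46 (0.12, adjusted p = 0.00253) with S + D and -0.21 (0.12, 95% interval from -0.44 to 0.02, adjusted p = 0.179) with Das. No call was made at 24 h, where the estimates lay between -0.28 and 0.09. ABL2, its paralog with stronger ties to actin (chromosome 1 from 179068465 to 179198819 of GRCh37, minus strand, ENSG00000143322), was not called in any comparison by the unblocked test on all libraries. At 72 h it was at 75.9 ± 2.62 CPM in the control, 56.9 ± 2.61 (Sal), 64.5 ± 7.88 (Das) and 56.5 ± 14.8 CPM (S + D), each with its SD at n = 4. The log2 fold changes were, in this order, -0.43 (adjusted p = 0.0212), -0.24 (0.243) and -0.44 (0.0187). Every Sal and every S + D library of 72 h lay below the controls, with S + D replicate 1 lowest at 35.7 CPM. Without S + D replicate 3 the difference for S + D was called (-0.55, adjusted p = 0.00717), and without S + D replicate 1 it was -0.27 (adjusted p = 0.0365). The replicate block called ABL2 at 72 h with Sal (-0.44, adjusted p = 0.00449) and S + D (-0.47, adjusted p = 0.00255), and the numbered libraries called it higher with Sal at 24 h (0.19, adjusted p = 0.00765). A fit of only the Sal and control libraries of 72 h also called ABL2 lower (-0.43, adjusted p = 0.000803 by edgeR).

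DDR1, the collagen receptor of epithelia (chromosome 6 from 30844198 to 30867933 of GRCh37, plus strand, ENSG00000204580), fell with all 3 treatments at 72 h. The controls had 1579, 1250, 1338 and 1567 CPM, Sal libraries 835, 710.0, 545 and 524 CPM, and Das libraries 926, 660, 657 and 818 CPM. S + D gave 542, 466, 503 and 493 CPM. No treated library reached the controls, and S + D was below every Das library. On the log2 scale the change was -1.15 (standard error 0.15, adjusted p = 5.29e-06) with Sal, -0.91 (0.15, adjusted p = 0.000290) with Das and -1.53 (0.16, adjusted p = 2.51e-07) with S + D, a 2.89-fold fall. At 24 h, DDR1 was at 1573, 1227, 1309 and 1342 CPM in the control, 895, 949, 887 and 872 CPM with Das and 793, 637, 686 and 680 CPM with S + D. These are falls of 0.58 (0.09, adjusted p = 0.000234) and 0.93 (0.09, adjusted p = 8.52e-07) on the log2 scale, without overlap, while Sal (1202, 1208, 989 and 1200 CPM) was not called (-0.26, adjusted p = 0.0727). The 6 epithelial markers together ran from 10570 to 11570 CPM in the 72 h control, from 6732 to 7211 with Sal, from 7246 to 9613 with Das and from 4663 to 6305 with S + D, and the part of this list in the DDR1 result was not tested.

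DDR2, the collagen receptor of mesenchymal cells (chromosome 1 from 162601163 to 162757195 of GRCh37, plus strand, ENSG00000162733), moved the opposite way from DDR1 and had the largest fold changes of the 9 genes tested at 72 h, from a very low level. Counts were 26, 18, 27 and 20 in the 72 h control, and CPM values 0.700, 0.603, 0.714 and 0.556. With Sal the level was 9.73, 8.16, 9.99 and 8.85 CPM, from 233 to 383 counts. S + D gave 5.36, 2.496, 5.39 and 5.69 CPM and Das 3.33, 2.21, 3.00 and 0.901 CPM. All treated libraries were above all controls, Sal libraries were above all others, and Das replicate 3 and S + D replicate 1 were the lowest of their groups. DDR2 changed by 3.81 (log2, standard error 0.34, adjusted p = 9.48e-08) with Sal, a 14.01-fold rise, 2.86 (0.34, adjusted p = 1.25e-06) with S + D and 1.86 (0.34, adjusted p = 0.000567) with Das. At 24 h, the libraries had 0.494, 0.545, 0.466 and 0.408 CPM in the control, 0.826, 1.73, 1.85 and 2.15 CPM with Das and 2.02, 1.87, 2.59 and 2.01 CPM with S + D. Das (1.78, 0.26, adjusted p = 0.000124) and S + D (2.17, 0.26, adjusted p = 5.65e-06) were called. Sal, at 1.204, 0.854, 1.07 and 0.935 CPM, missed the threshold at 1.07 (0.27, adjusted p = 0.0128) and passed it with the replicate block (1.07, adjusted p = 0.00716) and in the numbered libraries (1.01, adjusted p = 0.00375). The fibroblast markers LUM, DCN, COL1A1 and PDGFRB summed to 23.8 to 32.5 CPM in the 72 h control, 55.5 to 78.2 with Sal, 33.4 to 68.8 with Das and 68.8 to 122 with S + D. LUM and DCN were at or near 0 throughout, and the part of this list in the DDR2 result was not tested.

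Per kilobase, DDR1 exceeded DDR2 by 2280 to 3430 times in the 72 h control, by 66.4 to 106 times with Sal, by 105 to 227 times with S + D and by 266 to 1104 times with Das. At 24 h the ratio ran from 2742 to 4004 in the control and from 323 to 477 with S + D. The groups with Sal, S + D and Das did not overlap the control at either time, and DDR1 remained the more abundant transcript in every library. The most upstream RefSeq windows of the pair, of 8 for DDR1 and 3 for DDR2, differ in CpG content and are shown for that contrast (GRCh38.p14, plus strand, 5′ to 3′, CpG in capitals). They lie at chr6:30880720-30881019 and chr1:162630613-162630912.
DDR1: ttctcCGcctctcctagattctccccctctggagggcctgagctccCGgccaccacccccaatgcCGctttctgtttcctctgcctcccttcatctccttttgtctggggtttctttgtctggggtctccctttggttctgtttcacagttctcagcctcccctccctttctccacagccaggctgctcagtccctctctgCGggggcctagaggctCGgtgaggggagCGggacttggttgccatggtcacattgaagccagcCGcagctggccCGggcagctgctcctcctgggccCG
DDR2: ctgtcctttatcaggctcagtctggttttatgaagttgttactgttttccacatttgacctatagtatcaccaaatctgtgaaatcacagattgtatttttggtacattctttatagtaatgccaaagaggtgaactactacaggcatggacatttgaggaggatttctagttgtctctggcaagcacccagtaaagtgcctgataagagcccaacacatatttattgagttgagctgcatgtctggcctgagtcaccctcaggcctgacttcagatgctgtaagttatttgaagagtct
The DDR1 window holds 9 CpG (ratio 0.320, 62.3% GC), and the other DDR1 windows hold 3 to 34. The DDR2 window holds 0 CpG at 41.0% GC, and its other windows hold 5 and 3. The start sites used in these cells were not analysed here.

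**Figure D3:**
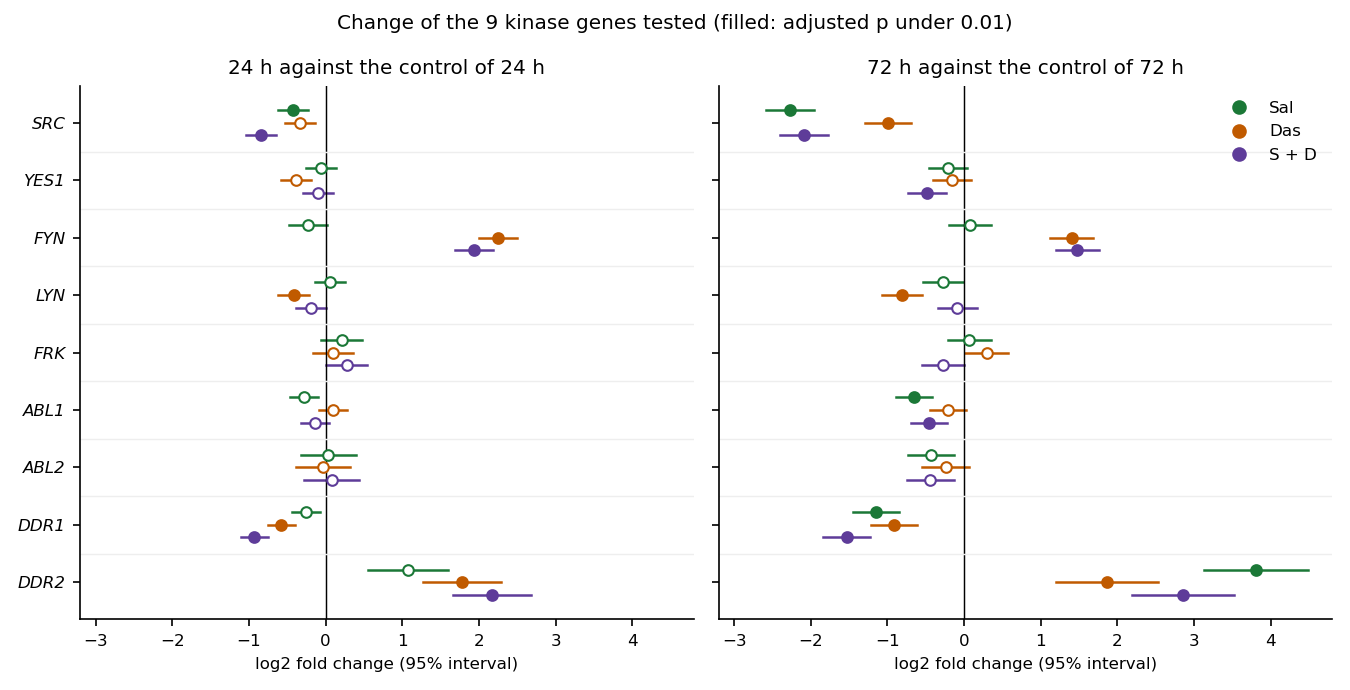
Log2 fold change of the 9 kinase genes tested against the control of the same time, at 24 h and 72 h, with 95% intervals. Filled points are called at an adjusted p under 0.01. DDR2 lies to the right in each treatment, FYN only where Das was given, and SRC reaches -2.27 with Sal at 72 h.

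Counted over the 9 genes tested, DDR2 was called higher and DDR1 lower with each treatment at 72 h and with Das and S + D at 24 h. At 24 h, Sal changed 1 gene (SRC, lower), where 6.78% of all genes tested were called. Das changed 4, with FYN and DDR2 higher and LYN and DDR1 lower, against 13.9% of all genes. S + D also changed 4, with FYN and DDR2 higher and SRC and DDR1 lower, against 33.6%. At 72 h, Sal changed 4 (DDR2 higher, SRC, ABL1 and DDR1 lower), which is near the 53.2% called among all genes. Das changed 5 (FYN and DDR2 higher, SRC, LYN and DDR1 lower), against 19.9% of all genes, and S + D changed 6 (FYN and DDR2 higher, SRC, YES1, ABL1 and DDR1 lower), against 54.9%. At 72 h the 9 genes had medians of -0.27 (Sal), -0.21 (Das) and -0.44 (S + D) on the log2 scale, where the medians of all genes lay between 0.00 and 0.02. The comparisons of a time point share their control libraries, so that their values stand side by side and are not independent. From the numbered libraries alone, 4 genes were called with Sal and 7 with Das at 24 h. The replicate block gave 2 genes with Sal at 24 h, SRC and DDR2.

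Whether S + D differed from the sum of the single responses was tested as an interaction on the log2 scale, where a value of 0 means that both are equal. At 24 h none of the 9 genes differed from the sum by edgeR's test, where 0.0306% of all genes were called. At an unadjusted p under 0.05 there was 1 (YES1), and DESeq2 called 0. At 72 h, 3 did (SRC, LYN and DDR2), against 7.52% of all genes. For SRC, the single responses summed to -3.26 and S + D gave -2.09, an interaction of 1.17 (standard error 0.22, adjusted p = 0.00198). For LYN the sum was -1.08 and S + D gave -0.09, an interaction of 1.00 (0.19, adjusted p = 0.00217). DDR2 had a sum of 5.67 and reached 2.86 with S + D, an interaction of -2.81 (0.45, adjusted p = 0.000713). In each of these genes the combination moved less than the sum. FYN equalled its sum closely (1.48 and 1.48, interaction 0.00, 95% interval from -0.39 to 0.39, adjusted p = 0.999). DDR1 missed the threshold at 0.53 (0.22, adjusted p = 0.0940), as did FRK at -0.64 (0.20, adjusted p = 0.0338).

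**Figure D4:**
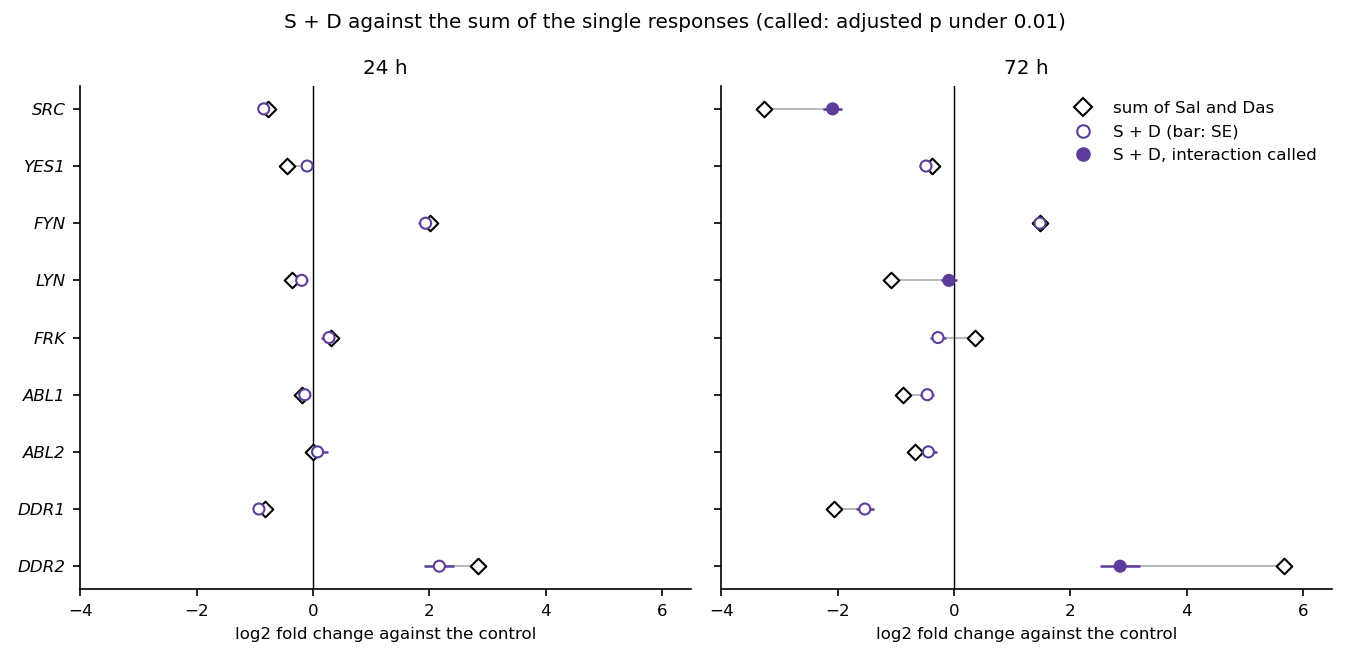
Log2 fold change with S + D (circles, bar 1 standard error) beside the sum of the log2 fold changes with Sal and with Das (diamonds) for the 9 kinase genes, at 24 h and 72 h. Filled circles mark an interaction at an adjusted p under 0.01. At 24 h no interaction is called and the widest gap is that of DDR2 (2.17 against a sum of 2.85), and at 72 h SRC, LYN and DDR2 lie closer to 0 than their sums of -3.26, -1.08 and 5.67.

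Set directly against a single drug at 72 h, S + D differed from Sal in FYN alone (log2 difference 1.40, standard error 0.14, adjusted p = 1.65e-05), where 3.01% of all genes were called. The difference of SRC from Sal was 0.18 (95% interval from -0.12 to 0.49, adjusted p = 0.543) and that of DDR2 -0.95 (0.29, adjusted p = 0.0535), although every S + D library of DDR2 lay below every Sal library. Against Das, 4 genes differed, where 32.1% of all genes were called. SRC (-1.09, 0.16, adjusted p = 3.19e-05), FRK and DDR1 (-0.62, 0.15, adjusted p = 0.00329) were lower with S + D and LYN was higher (0.73, 0.13, adjusted p = 0.000325). The numbered libraries alone also called YES1 lower (-0.39, adjusted p = 0.00978). The call of DDR1 was absent without the unnumbered Das library (-0.49, adjusted p = 0.0127) and without S + D replicate 1 (-0.58, adjusted p = 0.0113). DDR2, at 0.99 (0.30, adjusted p = 0.0126), was called without the unnumbered Das library (1.24, adjusted p = 0.00425) and without S + D replicate 1 (1.2045, adjusted p = 0.00312).

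The responses were also compared between 72 h and 24 h in 1 model of all 32 libraries. The response to Sal grew in SRC (-1.83, standard error 0.18, adjusted p = 2.84e-08), DDR1 (-0.89, 0.18, adjusted p = 0.000386) and DDR2 (2.74, 0.45, adjusted p = 3.26e-05), 3 of 9 genes, where 21.9% of all genes were called. For S + D, SRC changed further (-1.19, 0.18, adjusted p = 2e-05), 1 of 9 genes against 16.3% of all genes, and the numbered libraries added FRK (-0.62, adjusted p = 0.00351) and DDR1 (-0.56, adjusted p = 0.00699). The response to Das differed in none of the 9 genes by edgeR's test, where 0.226% of all genes were called. At an unadjusted p under 0.05 there were 3 (SRC, FYN and LYN), and DESeq2 called 1, FYN. The FYN response to Das was smaller at 72 h by 0.82 on the log2 scale (-0.82, 0.19, adjusted p = 0.0257), and was called in the numbered libraries (-1.03, adjusted p = 0.000111) and without the unnumbered Das library of 72 h (-0.997, adjusted p = 0.0026). The FYN level with Das was 34.2 ± 3.37 CPM at 24 h and 35.7 ± 6.81 CPM at 72 h. Its control level rose from 7.29 ± 0.815 to 13.4 ± 1.58 CPM. The difference in the SRC response to Das was -0.63 (0.18, adjusted p = 0.0758) and was called without Das replicate 3 of 72 h (-0.77, adjusted p = 0.00769).

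Other genes of the pathway were followed through 5 lists, to be read beside the 53.2% (Sal), 19.9% (Das) and 54.9% (S + D) of all genes called at 72 h and their medians of at most 0.02. Of 13 regulators of SRC, 9 were tested, and at 72 h Das changed 3 (1 higher, 2 lower), Sal 9 (3 higher, 6 lower) and S + D 7 (1 higher, 6 lower). Their median log2 fold change was -0.28 with Das, -0.47 with Sal and -0.52 with S + D. CSK, which phosphorylates the inhibitory tail of SRC family kinases, fell with S + D from 78.2 ± 6.92 to 40.4 ± 1.51 CPM (SD, n = 4; log2 fold change -0.97, standard error 0.13, adjusted p = 5.75e-06). CBLB, a ubiquitin ligase for active kinases, rose with Das (1.40, 0.24, adjusted p = 0.00031) and with S + D (1.80, 0.24, adjusted p = 4.45e-06), and its epithelial relative CBLC fell with Das (-0.82, 0.18, adjusted p = 0.00192) and S + D (-1.50, 0.18, adjusted p = 1.34e-06). The phosphatase gene PTPN6 fell with Das (-0.39, 0.10, adjusted p = 0.00774) and rose with Sal (0.34, adjusted p = 0.00765). With Sal alone at 72 h, CBLB also rose (1.93, adjusted p = 2.48e-06). CBLC (-1.58, adjusted p = 8.85e-07) and CSK (-0.90, adjusted p = 1.38e-05) fell with Sal.

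All 24 listed adhesion proteins, substrates and adaptors of SRC or ABL were tested. At 72 h, Das changed 7 of them (1 higher, 6 lower), Sal 8 (3 higher, 5 lower) and S + D 9 (3 higher, 6 lower), with medians of -0.11, 0.05 and 0.02. TNS3, a focal adhesion protein, fell from 90.3 ± 10.3 CPM in the control to 36.0 ± 11.6 with Das and 22.2 ± 4.06 with S + D (log2 fold changes -1.33 and -2.04, adjusted p = 0.000127 and 2.47e-07). VCL, which encodes vinculin, a link from adhesions to actin, fell by 0.81 (adjusted p = 4.02e-05) and by 1.23 (adjusted p = 6.42e-08) on the log2 scale. STAT3, a transcription factor that SRC can phosphorylate, fell by 0.76 with Das (adjusted p = 3.31e-05), and CAV1, a caveolar SRC substrate, fell with S + D (-1.496, adjusted p = 5.92e-07). With Sal alone at 72 h, TNS3 (-1.895), VCL (-1.32), STAT3 (-0.71) and CAV1 (-0.98) were called lower as well.

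Among 31 other kinases known to bind dasatinib, 23 were tested at 72 h. Das changed 7 (1 higher, 6 lower), Sal 16 (4 higher, 12 lower) and S + D 16 (6 higher, 10 lower), with medians of -0.09, -0.59 and -0.17. The ephrin receptor genes EPHA2 (-1.67, adjusted p = 6.47e-05) and EPHB3 (-1.12, adjusted p = 0.000369) fell with Das, and EPHA4 fell with S + D (-2.22, adjusted p = 7.8e-06). With Sal alone at 72 h, EPHA2 (-1.35), EPHB3 (-1.79) and EPHA4 (-1.96) were called lower as well. SIK1, a salt-inducible kinase, rose with Das (1.12, adjusted p = 0.000104) and fell with Sal (-1.57, adjusted p = 5.8e-07), with -0.44 (adjusted p = 0.0268) for S + D. PTK6, a SRC-type kinase of epithelia, rose with S + D from 1.29 ± 0.184 to 6.59 ± 0.336 CPM (2.34, standard error 0.31, adjusted p = 4.1e-06). PDGFRB, a growth factor receptor of mesenchymal cells, is counted among those higher with S + D, from a control level of 0.225 ± 0.0451 CPM to 1.23 ± 0.701 CPM, and did not pass the filter at 24 h. The 2 tested of 7 other SRC-type kinases were PTK6 and CSK, and both were called with Sal and with S + D at 72 h, 1 in each direction, and neither with Das.

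Of 13 collagen genes whose products bind DDR1 or DDR2, 9 were tested at 72 h. Das changed 5 (3 higher, 2 lower), Sal 7 (3 higher, 4 lower) and S + D 7 (3 higher, 4 lower), with medians of 0.50, -0.30 and 0.01. The basement membrane collagens COL4A3 and COL4A4 rose, COL4A3 from 4.51 ± 1.40 to 13.5 ± 5.79 CPM with Das (1.58, adjusted p = 0.000575) and 32.4 ± 6.64 CPM with S + D (2.83, adjusted p = 3.47e-07). COL4A4 rose by 1.04 (adjusted p = 0.00499) with Das and 1.95 (adjusted p = 4.45e-06) with S + D. With Sal alone, COL4A3 rose by 3.09 (adjusted p = 1.91e-07) and COL4A4 by 1.93 (adjusted p = 5.22e-06). Another basement membrane collagen, COL4A2, was called lower with Das (-0.84), Sal (-1.21) and S + D (-0.92). COL5A2, a fibrillar collagen, fell with Das (-1.54, adjusted p = 5.6e-06), and COL4A6 fell with S + D (-1.72, adjusted p = 0.00025). COL5A2 was also called lower with Sal (-0.70) and S + D (-0.91). COL4A6 was called lower with Sal (-1.18) and not called with Das (-0.06, adjusted p = 0.909). COL1A1, also fibrillar, was called higher with Sal (1.22) and S + D (1.62), and not called with Das (0.76, adjusted p = 0.0106).

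Among the 9 genes tested, which leave out LCK, DDR2 and FYN had the largest ranges of mean log2 CPM over the 8 conditions, 4.11 and 2.60. Over the 32 libraries, the genes whose log2 CPM correlated most with DDR2 were AHI1 (Pearson's r = 0.96), TBC1D32 (0.95) and UBR1 (0.95), among 13463 genes with a mean of at least 1 CPM. For FYN they were RIMS4 (0.94), RHOU (0.93) and ETS2 (0.92). These libraries share their 8 conditions, and the unnumbered libraries deviated together, so the values describe likeness of pattern over the libraries.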

How the data were processed

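RNA of MDA-MB-468 cells from 8 conditions was sequenced as 32 single-end libraries on a HiSeq4000 with the TruSeq kit. Per the labels, the authors used bcl2fastq 2.19, STAR 2.5.2 and GRCh37, with Cufflinks 2.1.1 for FPKM and DESeq2 for their own tests. The deposited values are raw counts per Ensembl gene, and the counting program, annotation and use of strand are not given in the sources used here. Symbols matched 46537 of 48804 identifiers.

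Groups were taken from the labels, which call the 4 libraries of a condition biological replicates. Genes were filtered with filterByExpr (minimum count 10) and TMM scaled, and tested by edgeR 4.0.16 quasi-likelihood fits (R 4.3.3) over the 16 libraries of a time point, or all 32 for comparisons of times, with Benjamini-Hochberg adjustment over all genes tested. A call needs an adjusted p under 0.01. Intervals are 1.96 standard errors. Exact permutation tests used scipy 1.17.1. Lengths and GRCh37 coordinates come from GENCODE exons merged per gene. The edgeR and DESeq2 fits were tested on simulated counts for Das against control at 72 h, with a fixed spread and no batch. The other comparisons, the block and the permutation tests were not simulated. The 10 genes, the lists and the rule for naming list genes (the 3 largest called changes per list at 72 h with Das or S + D, at a mean of at least 1 CPM) were chosen with earlier results of these data known.

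Depth was 25692561 to 42769687 counts, and genes near the minimum count have wide errors. Alternatives were RLE size factors, no filter, a replicate block, a term for or removal of the unnumbered libraries, DESeq2 1.42.0, other sample sets and leaving out each library. Same-numbered libraries correlated at 0.135 to 0.321 in their deviations from the group means at 24 h, but differently numbered libraries did so as well, at 0.116 to 0.353, and the numbered libraries alone gave -0.0804 to 0.0993. The tests reported have no block, and blocked values are given where they change a call. At 72 h the range was -0.0303 to 0.253.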

Additional observations from a re-analysis of the deposited data

Results flagged for a closer look

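In 7 of 80 groups of 4 libraries, 1 library stood far from the other 3. Chance would give about 1 in 20 groups if values were normal and groups independent. The groups of different genes reuse the same libraries and LCK had few counts, so that rate does not strictly apply. The unnumbered library was low for YES1 with S + D at 24 h (347 CPM) and for ABL2 at 24 h with Sal (45.0 CPM) and with Das (41.9 CPM). Replicate 2 was low for LYN with S + D at 24 h (7.73 CPM) and for DDR1 with Sal at 24 h (989 CPM). DDR2 was low in S + D replicate 1 of 72 h (2.496 CPM). LCK stood at 0.0298 CPM, from 1 count, in S + D replicate 3 of 72 h and at 0 in the other libraries of that group.

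Responses that differed between treatments or times in edgeR's quasi-likelihood test were the departures of S + D from the sum of the single responses at 72 h, 1.17 for SRC, 1.00 for LYN and -2.81 for DDR2 on the log2 scale. Between 72 and 24 h, the response to Sal differed by -1.83 for SRC, -0.89 for DDR1 and 2.74 for DDR2, and the response to S + D by -1.19 for SRC.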

How the results depend on the processing

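Of 2322 alternative values for single kinases, 2242 were counted as the same, 27 lost the call and 42 gained it. The other 11 had no call before or after and shifted in size, some up and some down. The sign changed in 50, of which 0 belong to a called value, all with a reported log2 value of at most 0.1615 in size. The number of kinases called with Sal at 24 h was 1 and became 0 with no filter, 0 with only the groups compared, 0 with all 32 libraries, 2 with the replicate block, 2 with a term for the unnumbered libraries, 2 with DESeq2 and 4 with the numbered libraries only. With Das at 24 h, 4 became 7 with the numbered libraries only. The change of the Das response between times went from 0 to 1 (FYN) with the replicate block, the term, the numbered libraries only or DESeq2, and that of the S + D response from 1 to 2 with the block, 2 with the term, 2 with only the groups compared and 3 with the numbered libraries. Requiring a log2 fold change past 1.5 as well left 0 (Sal), 2 (Das) and 2 (S + D) at 24 h, and 2, 1 and 3 at 72 h.

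With 1 library left out, the counts ran from 0 to 1 (Sal), 3 to 4 (Das) and 4 to 4 (S + D) at 24 h, from 4 to 4, 5 to 5 and 5 to 7 at 72 h, from 3 to 4 for S + D against Das and from 0 to 1 for the Das response. The other counts did not move. At 72 h the replicate block added ABL2 with Sal (adjusted p = 0.00449 by edgeR) and S + D (0.00255), the FRK interaction (0.00855) and DDR2 for S + D against Das (0.00424), and over both times the FYN response to Das (0.000813) and the DDR1 response to S + D (0.00268). It removed 0 calls. Without the filter, edgeR gained LCK with S + D at 72 h (adjusted p = 0.00505) and DDR2 for S + D against Das (0.00461). It lost the S + D call of ABL1 at 72 h (adjusted p = 0.0107) and the Das call of LYN at 24 h (0.0326), and with only the groups compared it lost LYN (0.0110) and the FRK difference of S + D from Das (0.0147). With only the groups compared, edgeR gained ABL2 with Sal at 72 h (adjusted p = 0.000803) and the DDR1 response to S + D (0.00558). The causes were not tested. RLE scaling moved the median of all genes by at most 0.0252 (log2) in size. LCK and the control level of DDR2 are limited by counts.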
